A study of Mus musculus with 9 samples.

Results

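A set of 10 genes that encode proteins stored in, or carried with, the granules of neutrophils were followed through early development of the mouse cornea. They were *Elane*, *Mpo*, *Prtn3* and *Ctsg* of the azurophil granule, *Ltf*, *Lcn2*, *Ngp* and *Camp* of the specific granule, and *S100a8* and *S100a9*, whose proteins form calprotectin. These 10 were taken from 19369 genes listed in at least 1 sample and were chosen by their measured levels, which peaked at E14.5, so their levels at E14.5, and the comparisons with E14.5, are given as a description without a test. The RNA-Seq data came from wild-type C57BL/6 embryos with no treatment, in 3 groups of 3 samples: periocular neural crest (pNC) at embryonic day E10.5, cornea at E14.5 and cornea at E16.5. Each sample was a pool of tissue from several eyes, with more eyes per pool at E10.5 than at the later stages. The pNC was freed of surface ectoderm and of the lens and optic cup tissue after a short incubation in the enzyme dispase. The corneas had been cut free of the tissue around them, with no enzyme step described. The E10.5 samples therefore differed from the others in tissue and handling as well as in age.

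Totals of expected counts were 8745161 to 9069023 per sample, and no 2 samples of a stage held the same values. The tissue labels were borne out by marker genes. *Alx1*, a periocular crest transcription factor, was at 43.4 to 62.5 FPKM (fragments scaled to transcript length and to the mapped fragments of the sample) at E10.5 and at most 1.46 FPKM in the corneas. *Kera*, a keratocyte proteoglycan gene, was at most 1.11 FPKM at E10.5 and at least 83.1 FPKM in the corneas. A single E14.5 sample stood apart: the cornea keratin gene *Krt12* was at 101.5 FPKM in sample 1 and at 0.62 and 2.06 FPKM in samples 2 and 3, and *Kera* was at 803 FPKM in sample 1 against 83.1 and 151 FPKM.

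Neutrophils load their granules in sequence while they mature in blood-forming tissue. Proteins of the azurophil (primary) granule, such as myeloperoxidase and the serine proteases, are made at the promyelocyte stage. Those of the specific (secondary) granule, such as lactoferrin and cathelicidin, are made later, at the myelocyte stage, and mature neutrophils carry the proteins but little of the early transcripts. Calprotectin is a cytosolic protein complex, abundant in mature neutrophils and also made by monocytes and by stressed epithelia. Among the regulators of these genes are PU.1 (*Spi1*), the C/EBP family, Gfi1 and Runx1.

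The members lie on 6 chromosomes of GRCm38. *Prtn3* (Entrez 19152, chr10:79879667-79883174) and *Elane* (Entrez 50701, chr10:79886312-79888216) are neighbours on the plus strand, 3137 bases apart. *S100a8* (Entrez 20201, chr3:90669071-90670034, plus strand) and *S100a9* (Entrez 20202, chr3:90692630-90695721, minus strand) are also next to each other, 22595 bases apart. *Camp* (Entrez 12796, chr9:109847377-109849456, minus strand), *Ngp* (Entrez 18054, chr9:110419808-110423012, plus strand) and *Ltf* (Entrez 17002, chr9:111019292-111042766, plus strand) share chromosome 9 but other genes lie between them. *Mpo* (Entrez 17523) is at chr11:87793784-87804412 on the plus strand, *Ctsg* (Entrez 13035) at chr14:56099885-56102574 on the minus strand and *Lcn2* (Entrez 16819) at chr2:32384637-32387739 on the minus strand. *Mpo* overlaps another annotated gene, *Gm34064*, and whether reads were counted by strand is not given in the sources used here.

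The 250 bases before the RefSeq start of each member (GRCm38.p6) were searched on both strands for GAGGAA, the core bound by PU.1, for TTGCNNAA, a C/EBP site, and for TGTGGT, a Runx site. All 10 members were matched. GAGGAA was present in 7 of 10 members and in 23.3% of all 32851 promoters, TTGCNNAA in 4 of 10 members and in 9.56% of all promoters, and TGTGGT in 2 of 10 members and in 14.05% of all promoters. The 4 azurophil genes each held GAGGAA on the strand of the gene and none held TTGCNNAA, which was found at *Ltf*, *Lcn2*, *Ngp* and *S100a9*. GAGGAA was also found, as its reverse complement, at *Ltf*, *Lcn2* and *S100a8*. A match describes letters only, and binding was not measured. The 5 windows are printed to show GAGGAA before 2 neighbouring azurophil genes, TTGCNNAA before 2 specific granule genes, and the pair of reverse GAGGAA matches before *S100a8*. They run 5′ to 3′ on the strand of the gene and end at the base before its start. Capitals mark GAGGAA and TTGCNNAA, each in this direction or as the reverse complement (TTCCTC for the former).
Prtn3, chr10:79879417-79879666, plus strand: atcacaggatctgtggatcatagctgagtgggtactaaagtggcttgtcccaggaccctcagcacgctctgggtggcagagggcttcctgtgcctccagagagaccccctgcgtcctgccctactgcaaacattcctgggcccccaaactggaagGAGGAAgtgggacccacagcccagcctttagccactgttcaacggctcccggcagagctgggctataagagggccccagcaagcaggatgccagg
Elane, chr10:79886062-79886311, plus strand: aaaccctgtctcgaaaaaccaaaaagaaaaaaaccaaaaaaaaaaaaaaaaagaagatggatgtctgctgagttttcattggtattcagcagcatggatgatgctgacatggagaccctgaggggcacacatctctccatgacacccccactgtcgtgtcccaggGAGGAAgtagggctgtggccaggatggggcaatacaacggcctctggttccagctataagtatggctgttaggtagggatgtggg
Ltf, chr9:111019042-111019291, plus strand: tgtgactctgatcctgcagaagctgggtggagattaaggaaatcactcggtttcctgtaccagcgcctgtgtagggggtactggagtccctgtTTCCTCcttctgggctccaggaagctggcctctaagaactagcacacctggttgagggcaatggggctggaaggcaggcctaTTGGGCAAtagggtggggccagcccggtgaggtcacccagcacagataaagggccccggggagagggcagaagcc
Ngp, chr9:110419558-110419807, plus strand: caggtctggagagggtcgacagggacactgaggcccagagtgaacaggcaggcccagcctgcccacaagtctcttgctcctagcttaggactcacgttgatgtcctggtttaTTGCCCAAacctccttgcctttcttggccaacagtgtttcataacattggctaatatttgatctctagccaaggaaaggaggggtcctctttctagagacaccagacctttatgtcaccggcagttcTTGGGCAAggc
S100a8, chr3:90668821-90669070, plus strand: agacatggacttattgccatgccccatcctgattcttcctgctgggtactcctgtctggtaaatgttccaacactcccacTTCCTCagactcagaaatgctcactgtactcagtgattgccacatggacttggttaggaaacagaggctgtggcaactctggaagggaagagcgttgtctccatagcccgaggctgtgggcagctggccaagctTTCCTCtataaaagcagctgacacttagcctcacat

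The azurophil genes were highest in 2 of the 3 E14.5 corneas. Of these, *Mpo* and *Prtn3* had low levels in the pNC, and at E16.5 none was above 1.66 FPKM. *Mpo*, which encodes the peroxidase that makes hypochlorous acid, had 50, 41 and 34 expected counts at E10.5, 31, 374 and 647 counts at E14.5, and 0, 6 and 0 counts at E16.5, with FPKM of up to 2.16, 28.1 and 0.26. Its E14.5 samples 2 and 3 were above all others, whereas sample 1 fell below all E10.5 samples. *Prtn3*, the gene for proteinase 3, was at 3.47, 3.09 and 4.12 FPKM at E10.5, at 2.73, 15.9 and 19.2 FPKM at E14.5, and at 1.66, 1.41 and 0.59 FPKM at E16.5. Again E14.5 sample 1 lay below every E10.5 sample, and every E16.5 sample lay below every sample of the other stages.

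*Elane*, which encodes neutrophil elastase, was at 0, 0.12 and 0 FPKM at E10.5, at 0.76, 7.34 and 11.7 FPKM at E14.5, and at 0.13, 0.25 and 0 FPKM at E16.5. Its 3 E14.5 samples were all above the other 6 samples, although sample 1 held only 6 counts. *Ctsg*, the gene for cathepsin G, was listed at 0 in all E10.5 samples, at 0.35, 1.62 and 2.73 FPKM at E14.5, and at 0.23, 0 and 0 FPKM at E16.5. It was the lowest of the members, with 3, 14 and 24 counts in the E14.5 samples. Summed over the stage and scaled to library totals, *Elane* counts at E14.5 were 160 times those at E10.5, where a single count was found (95% counting interval, 28.3 to 6363). For *Ctsg* they were at least 13.8-fold higher, taking 3 counts over the stage as the limit that a count of 0 allows. Such intervals and limits cover counting error only.

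The specific granule genes were all but absent from the pNC, highest in every E14.5 cornea, and still present at E16.5. *Ngp*, the neutrophilic granule protein gene, was at 0.1, 0 and 0.2 FPKM at E10.5, at 43.1, 12.8 and 11.5 FPKM at E14.5, and at 2.86, 5.28 and 4.96 FPKM at E16.5. *Camp*, which encodes the precursor of the antimicrobial peptide cathelicidin, was at 0, 0 and 0.2 FPKM, then at 39.7, 25.4 and 14.49 FPKM, and then at 1.60, 4.55 and 2.56 FPKM at the same stages. For both genes the 3 stages did not overlap, and E14.5 sample 1 was the highest of all samples.

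*Lcn2*, which encodes lipocalin 2, a protein that captures bacterial siderophores, was listed at 0 in all E10.5 samples, at 20.7, 7.94 and 5.26 FPKM at E14.5, and at 1.93, 3 and 1.76 FPKM at E16.5. *Ltf*, the gene for the iron-binding protein lactoferrin, was at 0.08, 0 and 0 FPKM at E10.5, at 15.7, 4.92 and 3.58 FPKM at E14.5, and at 0.50, 2.22 and 1.27 FPKM at E16.5. The stages were again separate for both genes. *Lcn2* counts were at least 83.8-fold higher at E14.5 than at E10.5 on the same limit of 3 counts.

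*S100a8* and *S100a9*, the calprotectin genes, had the highest levels of the members. *S100a8* was at 0.31, 0.30 and 0 FPKM at E10.5, at 115, 106 and 73.4 FPKM at E14.5, and at 6.01, 12.5 and 14.01 FPKM at E16.5. *S100a9* was at 0, 0.96 and 0.25 FPKM at E10.5, at 136, 99.0 and 57.6 FPKM at E14.5, and at 6.48, 13.8 and 14.47 FPKM at E16.5. All E14.5 samples were above all E16.5 samples, which were above all E10.5 samples. The FPKM ratio of *S100a9* to *S100a8* was 1.18, 0.938 and 0.784 in the E14.5 samples and 1.08, 1.1 and 1.03 in the E16.5 samples, so the levels of the partners were close in both corneal stages.

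**Figure D1:**
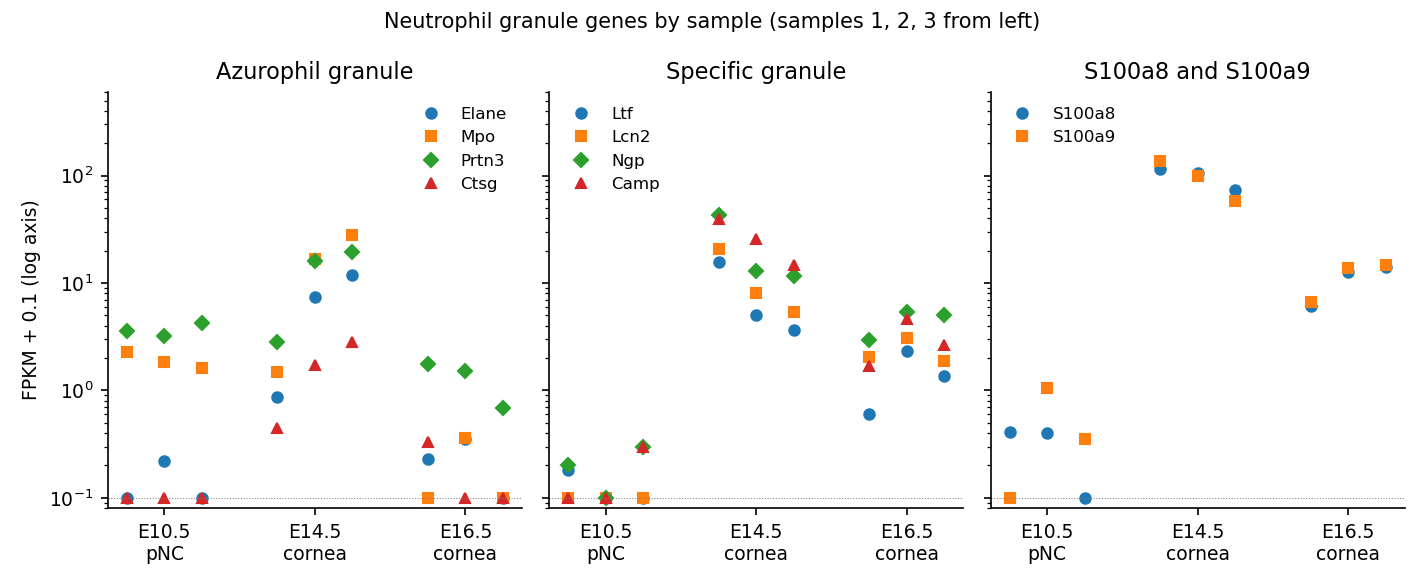
FPKM + 0.1 on a log axis for the 4 azurophil granule genes, the 4 specific granule genes, and *S100a8* and *S100a9* in each of the 9 samples, 1 point per sample, with samples 1, 2 and 3 of a stage from left to right. The dotted line marks a listed FPKM of 0, and all 10 genes peak in at least 2 E14.5 samples, with *Mpo* and *Prtn3* of E14.5 sample 1 below their E10.5 points.

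Ordered by mean FPKM at E14.5 (± SD, n = 3), the members ran from *S100a8* (97.9 ± 21.8) and *S100a9* (97.4 ± 39.1) through *Camp* (26.5 ± 12.6), *Ngp* (22.5 ± 17.9), *Mpo* (15.3 ± 13.4), *Prtn3* (12.6 ± 8.72), *Lcn2* (11.3 ± 8.27), *Ltf* (8.07 ± 6.65) and *Elane* (6.61 ± 5.52) to *Ctsg* (1.57 ± 1.19). Only the step from *S100a9* to *Camp* separated all 3 samples of neighbouring genes, and the ranges of every other pair of neighbours in this order overlapped. The order depended on E14.5 sample 1. Without it the means were 22.3 FPKM for *Mpo*, 17.6 for *Prtn3*, 12.2 for *Ngp*, 9.53 for *Elane*, 6.60 for *Lcn2* and 4.25 for *Ltf*, so that *Mpo* stood above *Camp* (25.4 and 14.49 FPKM in samples 2 and 3), *Prtn3* above *Ngp*, and *Elane* above *Lcn2* and *Ltf*. At E10.5 the order was different, with *Prtn3* at 3.56 ± 0.521 and *Mpo* at 1.80 ± 0.333 FPKM and each of the other 8 members at a mean of 0.403 FPKM or less. In 8 of the 10 members all 3 E14.5 samples were above all 6 samples of the other stages, the exceptions being *Mpo* and *Prtn3*. The same separation was seen in 5.26% of all 19369 genes, and since this peak chose the members nothing is read from the count.

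Among the members, the rank of the E14.5 samples differed between the 2 kinds of granule. Genes outside the members were mixed. *Ms4a3* was lowest in sample 1 and highest in sample 3. The azurophil granule gene *Prss57* was highest in sample 1, and the specific granule gene *Olfm4* was highest in sample 2. All 4 azurophil members were lowest in sample 1 and highest in sample 3. All 4 specific granule members and both calprotectin genes were highest in sample 1 and lowest in sample 3. *Mpo* was 20.5-fold higher in sample 3 than in sample 1 and *Elane* 15.4-fold higher, whereas *Ltf* was 4.39-fold, *Lcn2* 3.94-fold, *Ngp* 3.75-fold and *Camp* 2.74-fold higher in sample 1 than in sample 3. The range was narrower for *S100a8*, at 1.57-fold, and for *S100a9*, at 2.36-fold. Of the 14771 genes that passed the filter on low counts, 22.9% were ordered as the specific granule genes were and 16.2% as the azurophil genes were. These orders were noticed in the data, the 3 samples carry no order of their own, and no test was made of them.

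Summed over genes, the azurophil members were at 5.21, 41.4 and 61.8 FPKM in E14.5 samples 1, 2 and 3, while the specific granule members were at 119, 51.1 and 34.8 FPKM and the calprotectin genes at 250, 204 and 131 FPKM. The azurophil share of the FPKM summed over all members was thus 1.39%, 13.9% and 27.2% in the E14.5 samples. It was 92.0%, 79.7% and 89.6% at E10.5, where the sum over the members was only 6.12 to 6.27 FPKM, and 9.44%, 4.44% and 1.49% at E16.5. E14.5 sample 1 thus lay nearer in this share to the E16.5 corneas than to the other E14.5 corneas. It was also the E14.5 sample with the most *Krt12* and *Kera* and the least *Hbb-y*, an embryonic globin gene (117 FPKM against 550.4 and 538 FPKM), and the part of this difference between samples in the granule genes was not tested.

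**Figure D2:**
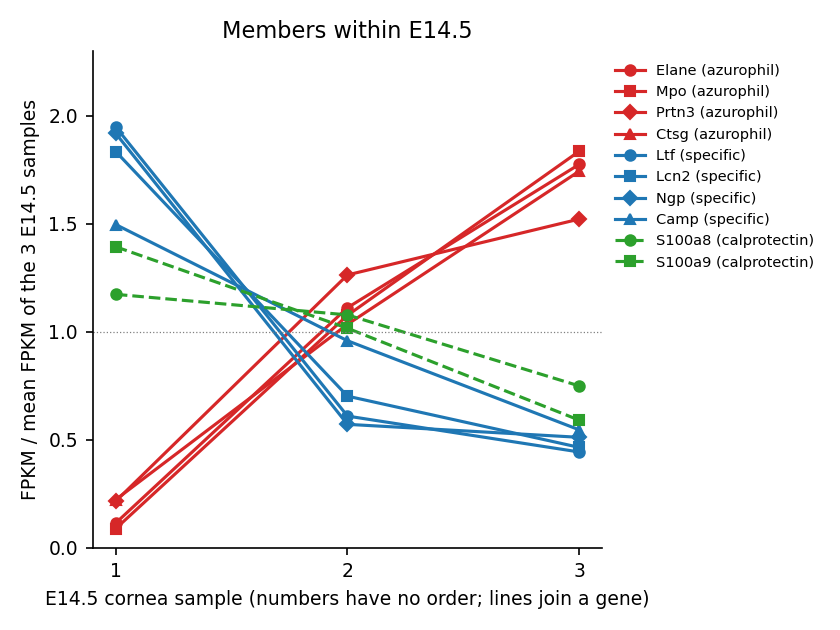
FPKM of each member in the 3 E14.5 cornea samples, divided by the mean of that gene over the 3 samples, on a linear axis from 0. Lines join the values of a gene, and the numbers on the horizontal axis only name the samples. The 4 azurophil genes (red) are lowest in sample 1 and highest in sample 3, and the 6 other genes (blue, and green dashed) are the reverse.

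The grouping was also described over all 9 samples. These include the E14.5 samples in which it was noticed, so this is not a separate observation. On log2(FPKM + 1), Pearson's r was 0.879 to 0.988 (median 0.910) for the 6 pairs of azurophil genes and 0.931 to 0.994 (median 0.973) for the 15 pairs among the other members, but 0.239 to 0.713 (median 0.496) for the 24 pairs across the groups. These values describe 9 samples that share 3 stages, and the rule by which the genes were picked raises all of them.

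In the fit over all genes, 8 of the 10 members passed the filter on low counts, and *Elane* and *Ctsg* did not. The counts of their E14.5 samples alone were enough for each of the 8 to pass, and *Camp* passed only through them. From E10.5 to E14.5, 8 members were called higher and 0 lower (adjusted p under 0.05 with log2 fold changes past 1 in either direction), where 13.6% of all genes tested were called higher and 7.97% lower. From E14.5 to E16.5, 0 members were called higher and 8 lower, where 6.26% of all genes were called higher and 5.47% lower. These contrasts chose the members, so nothing is read from the counts. The fitted log2 differences from E14.5 to E16.5 were -7.21 (SE 1.25) for *Mpo* and -3.20 (SE 0.65) for *Prtn3*, against -2.42 (SE 0.60) for *Ltf*, -2.16 (SE 0.53) for *Lcn2*, -2.19 (SE 0.49) for *Ngp*, -3.01 (SE 0.44) for *Camp*, -3.00 (SE 0.28) for *S100a8* and -2.90 (SE 0.37) for *S100a9*.

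The mean summed FPKM at E14.5 was 23.9 times that at E16.5 for the azurophil members, 6.32 times for the specific granule members and 8.71 times for calprotectin. Leaving out any 1 of the 6 corneal samples gave ratios of 15.4 to 34.2, 3.97 to 7.87 and 7.13 to 10.1. The ratio of the specific granule members was 3.97 without E14.5 sample 1, and that of the azurophil members was 15.4 without E14.5 sample 3 and 37.2 on CPM in place of FPKM. In bulk tissue, fewer cells of a type and less RNA per cell cannot be told apart.

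The comparison of E16.5 cornea with E10.5 pNC was not used to pick the members and was tested. Relative to the pNC, 6 members were higher at E16.5 and 1 was lower, where 19.4% of the 14771 genes tested were called higher and 15.4% lower (edgeR quasi-likelihood test with Benjamini-Hochberg adjustment over all genes). The 6 were the specific granule genes and the calprotectin genes. *S100a8* rose by 5.62 on the log2 scale (SE 0.63, adjusted p = 1.58e-05), *S100a9* by 4.88 (SE 0.73, adjusted p = 0.000122), *Ngp* by 5.48 (SE 1.01, adjusted p = 0.000571) and *Camp* by 5.17 (SE 1.04, adjusted p = 0.00104). *Camp* had passed the filter on low counts only through its E14.5 samples. In the edgeR fit without the filter it rose by 5.17 (SE 0.99, adjusted p = 0.000579). *Ltf* rose by 5.52 (SE 1.31, adjusted p = 0.00303), and it did not pass on log2(FPKM + 1) in limma, where the difference was 1.11, or by NOISeq. *Lcn2* also rose (adjusted p = 0.00219), and because it had no count at E10.5 its size is given only as at least 16.6-fold higher.

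With 0 to 5 counts over the 3 samples at E10.5, the sizes of these changes are loosely fixed. Summed counts of *S100a8* at E16.5 were 52.8 times those at E10.5 (95% counting interval, 14.3 to 441.5) from 104 and 2 counts. Those of *Ngp* were 45.3 times as high (15.2 to 223) from 134 and 3 counts. Those of *Camp* were 44.7 times as high (7.61 to 1803) from 44 and 1 counts, and those of *Ltf* 49.2 times as high (13.3 to 412) from 97 and 2 counts. All 3 E16.5 samples were above all 3 E10.5 samples for each of the 6 genes, as they were for 27.4% of all 19369 genes.

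The azurophil genes did not follow. *Mpo* fell by 4.13 on the log2 scale (SE 1.54, adjusted p = 0.0325), with 6 counts at E16.5 against 125 counts at E10.5. This call was lost in limma on log2(FPKM + 1), where the difference was -1.37, by NOISeq, and when E10.5 sample 1, 2 or 3 or E16.5 sample 1 or 3 was left out, with differences of -3.98, -4.16, -4.25, -3.57 and -3.56. *Prtn3* was not called, at -1.39 (SE 0.72, adjusted p = 0.107), and it passed in DESeq2 (-1.40) and when E14.5 sample 1 was left out (-1.39). *Elane*, with 1 and 3 counts, and *Ctsg*, with 0 and 2 counts, were at or under the limit of 3 counts at both stages, and a difference was not detectable at this depth.

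**Figure D3:**
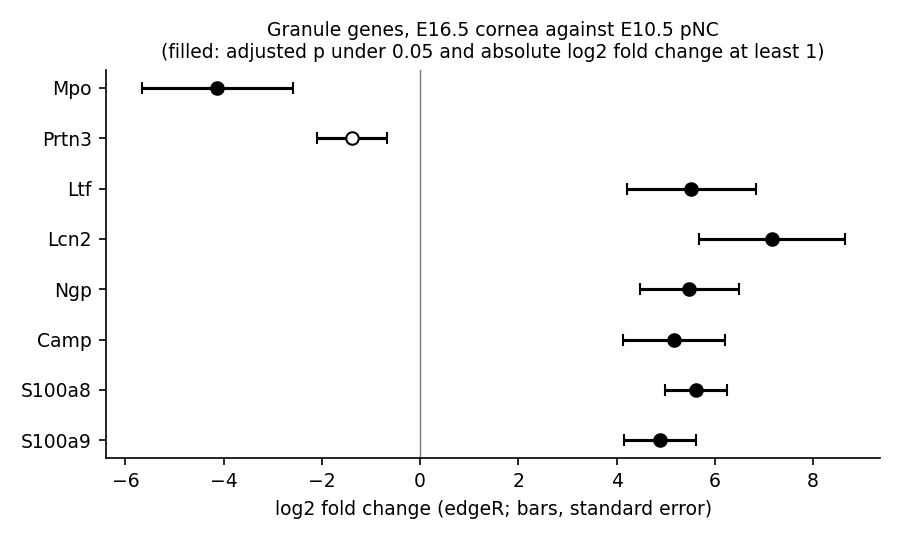
Log2 fold change of E16.5 cornea over E10.5 pNC for the 8 members that passed the filter on low counts. Bars are 1 standard error, derived from the F statistic of the fit over all 9 samples. Filled points passed both thresholds: the 6 specific granule and calprotectin genes lie at 4.88 and above, *Mpo* lies at -4.13, and *Prtn3* (open) at -1.39. The place of *Lcn2* depends on the constant added to a count of 0.

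A list of 16 other genes of neutrophil granules, none of them a member, was examined in the same fit. All 16 were listed and 10 passed the filter on low counts. Of the 10, *Fcnb*, *Olfm4*, *Pglyrp1* and *Mmp9* passed only through their E14.5 samples, so the filter favoured a difference from E14.5, and no such test is given for them. Of the other 6 genes, 4 rose from E10.5 to E14.5 (*Hp*, *Lyz2*, *Prss57* and *Srgn*) and 0 fell, with a median log2 fold change of 1.93, against 0.01 over all genes tested. From E14.5 to E16.5, 0 of the 6 rose and 3 fell (*Hp*, *Lyz2* and *Itgam*), with a median of -0.62. From E10.5 to E16.5, 2 of the 6 rose (*Prss57* and *Srgn*) and 0 fell, with a median of 0.25. Over all 10 genes, 4 were called higher and 0 lower, with a median of 1.95. The added calls were *Mmp9* and *Pglyrp1*, which were in the fit only through their E14.5 samples. The comparisons share samples, and the list was chosen with earlier results of these data known.

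*Fcnb*, a ficolin gene of maturing myeloid cells, was at 0, 0.11 and 0 FPKM at E10.5, at 2.62, 9.59 and 5.80 FPKM at E14.5, and at 0, 0.43 and 0.22 FPKM at E16.5. The specific granule gene *Olfm4* was at 0.07, 0.27 and 0.42 FPKM, then at 6.65, 8.99 and 4.60 FPKM, and then at 0.14, 0.97 and 0.97 FPKM. The stages E14.5 and E16.5 did not overlap for either gene.

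*Pglyrp1*, a peptidoglycan recognition protein gene, was at 3.93 to 5.39 FPKM at E14.5. It was at 0 to 0.35 FPKM at E10.5 and at 0.52 to 1.38 FPKM at E16.5. The log2 difference between these 2 stages was 2.44 (SE 0.73, adjusted p = 0.0116), for a gene that passed the filter only through its E14.5 samples. *Lyz2*, the lysozyme gene that macrophages also use, was at 50.3, 35.4 and 18.1 FPKM at E14.5 and at 7.88 to 11.2 FPKM in the other samples. *Srgn*, which encodes the proteoglycan that packs granule proteins in many blood cell types, rose to E14.5 (2.28, SE 0.21, adjusted p = 9.28e-06) and was at 9.14 to 10.1 FPKM at E16.5, close to its E14.5 range of 10.1 to 11.5 FPKM. *Prss57*, an azurophil granule protease gene, was at 0.49 to 0.82 FPKM at E10.5, 2.06 to 2.53 FPKM at E14.5 and 3.05 to 3.81 FPKM at E16.5, an order unlike that of the 4 azurophil members. *Ctsc*, the protease gene that activates elastase, proteinase 3 and cathepsin G, was called in no comparison and lay at 7.69 to 10.96 FPKM in all 9 samples.

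All 10 transcription factors of granulocyte development were tested, *Cebpe* and *Gfi1* having passed the filter only through E14.5 samples. Of the other 8, 2 rose from E10.5 to E14.5 (*Cebpa* and *Runx1*) and 0 fell, and 0 rose and 1 fell from E14.5 to E16.5. From E10.5 to E16.5, 2 of these 8 rose (*Cebpa* and *Runx1*) and 3 fell, and *Gfi1* was also called higher. For this and the other lists, the shares over all genes tested were 13.6% higher and 7.97% lower from E10.5 to E14.5. They were 19.4% and 15.4% from E10.5 to E16.5, and 6.26% and 5.47% from E14.5 to E16.5. Counts near these shares are not read as results about a list. *Cebpe*, which drives specific granule genes, was at 0.18, 0 and 0.28 FPKM at E10.5, at 1.03, 1.21 and 1.65 FPKM at E14.5, and at 0, 0.09 and 0.09 FPKM at E16.5. Its E14.5 samples held 11, 13 and 18 counts and were above all others. *Cebpa*, needed for the step to granulocyte precursors and also used outside the blood, had another course, at 0.94 to 2.07, 7.57 to 14.8 and 16.3 to 20.3 FPKM. *Gfi1*, a repressor needed for neutrophil maturation, was at 0.09 to 0.13, 0.21 to 0.59 and 0.22 to 0.39 FPKM. *Spi1*, the PU.1 gene, was called in no comparison and was at 2.84 to 4.96 FPKM in all samples, and *Irf8*, which favours monocytes over neutrophils, fell from 1.49 to 1.80 FPKM at E14.5 to 0.60 to 0.84 FPKM at E16.5 (-1.12, SE 0.24, adjusted p = 0.00499).

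Genes of the phagocyte NADPH oxidase were examined next. Of 6, all tested, only *Cybb*, the catalytic subunit gene, was called: it rose by 2.08 from E10.5 to E14.5 (SE 0.34, adjusted p = 0.000491) and fell by 1.499 from E14.5 to E16.5 (SE 0.33, adjusted p = 0.00622). The count of genes that fell from E14.5 to E16.5 was 1, and it was 2 without E10.5 sample 3, E14.5 sample 1 or 2 or E16.5 sample 1, and 3 without E16.5 sample 2. *Cybb* was at 2.40, 1.33 and 1.17 FPKM at E14.5 and at 0.26 to 0.60 FPKM in the other samples. *Ncf1* changed by less than a call needs, by 0.84 from E10.5 to E14.5 (SE 0.16, adjusted p = 0.00104). From E14.5 to E16.5 it changed by -0.95 (SE 0.16, adjusted p = 0.00172). In *Cybb*, *Ncf1* and *Rac2* all E14.5 samples were above all others, and in the rest of the list they were not. That separation was seen in 5.26% of all genes. *Cyba*, its partner in the membrane that many other tissues also express, was at 18.1 to 40.2 FPKM throughout.

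Receptors of the mature neutrophil ranged from unlisted to several FPKM. *Ly6g* was listed in no sample, and *Fpr1*, *Fpr2* and *Trem1* were at most 0.53 FPKM in every sample. Of 13 receptor genes, 12 were listed and 8 tested. From E10.5 to E14.5, 2 rose, *C5ar1* (1.51, SE 0.44, adjusted p = 0.0124) and *Itgb2* (1.07, SE 0.37, adjusted p = 0.0304), a count that was 1 when any E10.5 sample or E14.5 sample 3 was left out. From E10.5 to E16.5, *C5ar1* rose and *Cxcr4* fell, and the number that fell was 0 without E10.5 sample 3 or E16.5 sample 3, 2 without E16.5 sample 1 and 3 without E16.5 sample 2. From E14.5 to E16.5, *Itgb2* fell. *Cxcr2*, the main chemokine receptor of mature neutrophils, was at 3.98 to 7.08 FPKM in all samples and was called in no comparison. *Fcgr3*, an Fc receptor gene shared with macrophages, had the highest mean of the list, at 4.32 to 11.2 FPKM over the 9 samples.

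Ligands known to draw neutrophils were near or at 0. Of 16 ligand and adhesion genes, 12 were listed and 5 tested. From E10.5 to E14.5, 1 rose, from E10.5 to E16.5, 2 rose and 1 fell, and from E14.5 to E16.5, 1 rose and 1 fell. Without E14.5 sample 1, 2 or 3 or E16.5 sample 1 some of these counts moved by 1. *Cxcl3* and *Sele* were listed in no sample, and *Cxcl1*, *Cxcl2*, *Cxcl5*, *Csf3*, *Il1b* and *Selp* were at most 0.47 FPKM in every sample. *Cxcl12*, which holds neutrophils and their precursors in the marrow, was at 65.4 to 75.1 FPKM at E10.5, at 15.9, 54.6 and 52.8 FPKM at E14.5 and at 4.58 to 7.45 FPKM at E16.5. It fell by 2.53 from E14.5 to E16.5 (SE 0.40, adjusted p = 0.00137), and its E14.5 sample 1 was the lowest of that stage. The adhesion genes *Vcam1* and *Icam1*, also made by stromal and epithelial cells, rose from E10.5 to E16.5 by 2.34 (SE 0.21, adjusted p = 3.39e-06) and 1.71 (SE 0.27, adjusted p = 0.000211).

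Of the 5 inhibitors of serine proteases, 3 were tested, of which 2 rose from E10.5 to E14.5, 3 from E10.5 to E16.5 and 1 from E14.5 to E16.5. *Serpinb1a*, whose product inhibits elastase, proteinase 3 and cathepsin G, was at 0 to 0.18 FPKM at E10.5, at 3.30 to 4.70 FPKM at E14.5 and at 4.16 to 4.91 FPKM at E16.5. It rose by 5.22 from E10.5 to E14.5 (SE 0.42, adjusted p = 3.96e-06) and differed by 0.36 from E14.5 to E16.5 (SE 0.25, adjusted p = 0.287), where no azurophil member was above 1.66 FPKM at the later stage. *A2m*, a broad protease inhibitor gene, was at 1.44 to 1.59 FPKM at E10.5, at 122, 14.9 and 44.8 FPKM at E14.5 and at 502 to 597 FPKM at E16.5. Its rise from E14.5 to E16.5 was 3.35 (SE 0.56, adjusted p = 0.00174).

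Markers of other blood cells were set beside the members. Summed over 9 pan-leukocyte genes, FPKM was 60.7 to 64.2 in the pNC, 68.1 to 86.2 in the E14.5 corneas and 41.0 to 46.2 in the E16.5 corneas, and 13 macrophage genes summed to 67.8 to 75.6, 97.7 to 121 and 69.4 to 80.9 FPKM. From E10.5 to E14.5, 1 of the 9 pan-leukocyte genes and 2 of the 12 macrophage genes tested rose (0 and 1 without E14.5 sample 1, and 2 pan-leukocyte genes without E14.5 sample 3). From E14.5 to E16.5, 1 and 0 fell (2 pan-leukocyte genes without E14.5 sample 1 or E16.5 sample 3, and 1 macrophage gene without E14.5 sample 3 or E16.5 sample 2 or 3). The 4 monocyte genes differed among themselves: *Plac8* was at 2.82 to 4.60, 6.61 to 11.9 and 23.1 to 47.1 FPKM at the 3 stages, whereas *Ly6c2* was at most 0.16 FPKM at E10.5, at 0.71, 2.40 and 0.79 FPKM at E14.5 and at most 0.26 FPKM at E16.5. Over the same stages the 10 members summed to 6.20 ± 0.0764, 300 ± 73.7 and 34.8 ± 11.7 FPKM (SD, n = 3). In CPM (counts scaled to the library total) they went from 8.60 ± 0.655 to 212 ± 27.9 and 23.04 ± 8.14. The members were picked for their peak at E14.5, so nothing is read from how their course differs from these lists. Of 9 lymphoid genes 1 passed the filter, and the list summed to 1.83 to 3.13 FPKM in all samples. The part of these cells in the levels of the members was not tested.

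The sum of the eosinophil genes was also highest at E14.5. The 7 genes summed to 1.35 to 1.69 FPKM at E10.5, to 21.8, 38.4 and 16.8 FPKM at E14.5 and to 1.87 to 4.12 FPKM at E16.5. Of 4 tested, *Prg2*, *Epx* and *Ear2* passed the filter only through E14.5 samples, so no count of changes is given. The remaining gene tested, *Il5ra*, was called in no comparison. *Prg2*, the eosinophil major basic protein gene, made up most of the E14.5 sums, at 13.6, 27.3 and 11.4 FPKM. At most 2.22 FPKM of *Prg2* was found in the other samples. It was highest in E14.5 sample 2, which none of the 10 members was, although *Fcnb*, *Olfm4* and *Hp* of the other granule genes were. Mast cell genes did not share this course: 9 listed genes summed to 21.9 to 25.9 FPKM at E10.5, to 140.5, 36.1 and 34.7 FPKM at E14.5 and to 146 to 173 FPKM at E16.5. This sum mixed genes that went opposite ways. Of 7 tested, 5 rose and 1 fell from E10.5 to E14.5, and 4 rose and 0 fell from E14.5 to E16.5. From E10.5 to E14.5, *Cma1* rose by 8.67 (SE 1.29, adjusted p = 0.000239) and *Gata2* fell by 3.12 (SE 0.17, adjusted p = 2.44e-07). E14.5 sample 1 was the highest of its stage for this list as for the specific granule members, but the E16.5 samples were higher still.

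Of 11 erythroid genes tested, 6 fell and 1 rose from E10.5 to E14.5, and 6 fell and 0 rose from E14.5 to E16.5. Those that fell in both included the embryonic globin genes *Hbb-y*, *Hbb-bh1* and *Hba-x*. The gene that rose was *Hbb-bs*, an adult globin gene, at 15.2 to 31.1 FPKM at E10.5, 437 to 1460 FPKM at E14.5 and 438 to 910 FPKM at E16.5, and the adult globin gene *Hba-a1*, at 639 to 2187 FPKM in all samples, was called in no comparison. Of 11 vascular endothelial genes, 8 fell from E10.5 to E14.5 (5 without E14.5 sample 1) and 10 fell from E14.5 to E16.5. Their sum was 196 to 306 FPKM at E10.5, 78.9, 128 and 133 FPKM at E14.5 and 28.8 to 46.6 FPKM at E16.5. The part of blood held in vessels, or of vessels in the dissected tissue, in the levels of the granule genes was not tested.

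**Figure D4:**
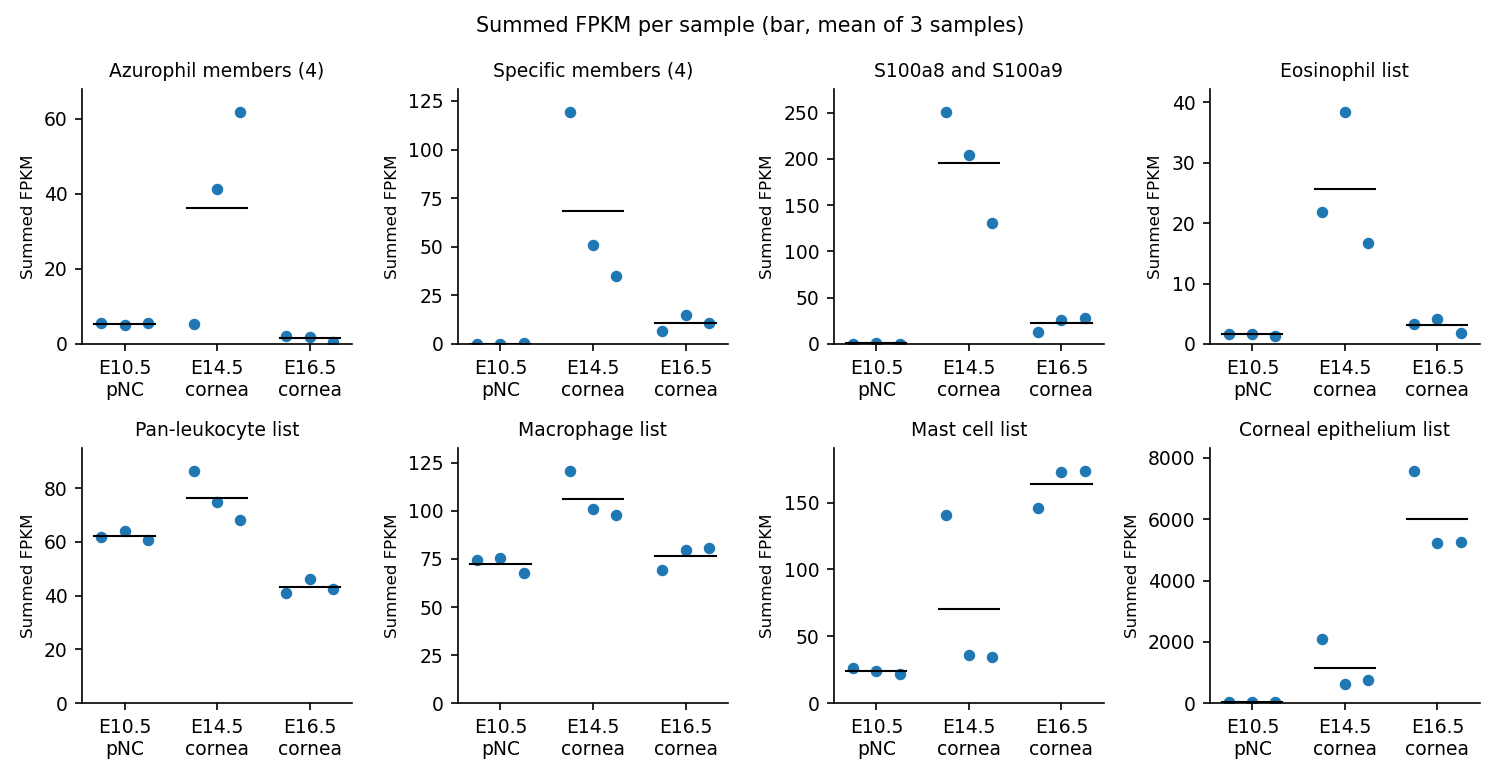
Summed FPKM in each of the 9 samples for the 3 groups of members and 5 marker lists, on linear axes that start at 0 and differ between panels, with a bar at the mean of the 3 samples of a stage. The azurophil sum is 5.21 FPKM in E14.5 sample 1 and 41.4 and 61.8 FPKM in samples 2 and 3. The eosinophil sum peaks at E14.5, the pan-leukocyte and macrophage sums vary less, and the mast cell and corneal epithelium sums are highest at E16.5.

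Of the listed genes next to a member on the chromosome and not members themselves, only *Ccrl2*, after *Ltf*, had its highest mean at E14.5 (0.307 ± 0.11 FPKM, against 0.137 ± 0.11 at E10.5 and 0.25 ± 0.115 at E16.5, SD, n = 3). *Plppr3*, before *Prtn3*, was at mean levels of 81.2 FPKM at E10.5, 55.8 FPKM at E14.5 and 35.3 FPKM at E16.5. In the same order of stages, *Lpo*, the lactoperoxidase gene after *Mpo*, was at 0.23, 0 and 0.04 FPKM. *Tspoap1*, on the other side of *Mpo*, was at 1.24, 6.89 and 7.50 FPKM. *S100a7a*, before *S100a8*, was at 0.05, 0.477 and 2.69 FPKM. *Mcpt8* and *Gzme*, on either side of *Ctsg*, were listed in no sample.

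The genes most like the members were sought among 14867 genes with an FPKM of at least 1 in some sample, by Pearson's r over the 9 samples with the mean standardised log2(FPKM + 1) of the members. The 10 with the highest r, 0.979 to 0.990, were *Prr16*, *Ncor1*, *Ogfrl1*, *Kbtbd7*, *Serpinb9*, *Arhgap20*, *Veph1*, *Maob*, *2700069I18Rik* and *Ap3s1*, none of which is on a list used here. *Ncor1*, a co-repressor gene, was at 29.6 to 30.0, 37.3 to 37.7 and 31.7 to 31.9 FPKM in the 3 stages. Only 4 of these 10 were found again without E14.5 sample 1, 5 without E14.5 sample 3, and 1 by Spearman's rank correlation.

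Taken by group, a step chosen after the data had been seen, the gene most like the 4 azurophil members was *Ms4a3* (r = 0.983), a marker of granulocyte and monocyte precursors. It was at 0.23, 2.29 and 3.16 FPKM at E14.5 and at most 0.12 FPKM elsewhere, and so shared the low value of E14.5 sample 1. For the other 6 members the highest r were those of *H2-Q4* (0.989), *Insyn2a* (0.986) and *Stfa2* (0.981), a stefin gene, which was at 7.80, 4.56 and 2.91 FPKM at E14.5, at 1.57 to 2.42 FPKM at E16.5 and listed at 0 at E10.5. The 9 samples share 3 stages, so many genes have a high r.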

How the data were processed

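RNA-Seq libraries of poly(A) RNA from 9 samples, 3 per stage, were analysed. As described in the methods, the authors discarded adaptor, ambiguous and poor reads, aligned the remainder to gene sequences (Bowtie 2) and to the genome build GRCm38 (HISAT), and quantified genes with RSEM, whose versions are not given in the sources used here. The deposited expected counts are RSEM estimates, not normalized. The deposited FPKM values were scaled by the authors to transcript length and to mapped fragments. Only genes at 0.01 FPKM or above are listed, and unlisted genes were set to 0.

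Stages and sample numbers came from the labels, and Entrez identifiers were matched to RefSeq symbols (19312 of 19369). Expected counts were rounded, filtered with filterByExpr by stage, scaled by TMM and fitted in 1 quasi-likelihood model of stage with edgeR 4.0.16 in R 4.3.3. Calls needed a Benjamini-Hochberg adjusted p under 0.05 over all genes and a log2 fold change of 1 or more in size. The SE printed for edgeR is the size of the log2 fold change divided by the square root of the F statistic. The members and lists were chosen with earlier results of these data known. Named genes were all members, up to 3 genes of each list with the highest mean FPKM, up to 3 called genes of each list with the largest change per comparison, markers at or near 0, chromosomal neighbours, and the 10 genes most like the members. Other named genes (*Hp*, *Itgam*, *Runx1*, *Ly6c2*, *Hbb-bs*, *Ms4a3*, *Gata2*, *Il5ra*, and those of the search by group) were chosen after their values were seen.

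Alternatives were DESeq2 1.42.0, limma 3.58.1 on log2(FPKM + 1) and log2(FPKM + 0.1), NOISeq recomputed from FPKM at a probability of 0.8, other scalings, no filter, a replicate block, and each sample left out. Statistical scripts were tested on simulated data first. The labels give the 3 samples of a stage as biological replicates, each a pool, so p-values measure the spread between pools.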

Additional observations from a re-analysis of the deposited data

How the results depend on the processing

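Members called lower from E10.5 to E16.5 numbered 1, but 2 with DESeq2, 0 in limma on log2(FPKM + 1), 0 by NOISeq, and 0 to 2 with 1 sample left out. The 10 genes most like the members shared 1 gene with the list by Spearman's rank correlation and 4 to 9 genes with 1 sample left out. Over all genes, limma on log2(FPKM + 1) and NOISeq called 1290 and 941 genes higher (edgeR 2014) and 746 and 535 lower (edgeR 1177) from E10.5 to E14.5, 1878 and 1694 higher (edgeR 2862) from E10.5 to E16.5, and 504 and 381 higher (edgeR 924) and 500.0 and 401 lower (edgeR 808) from E14.5 to E16.5. Of the other granule genes, NOISeq called 5 higher from E10.5 to E14.5 (edgeR 8), and from E10.5 to E16.5 limma on log2(FPKM + 1) called 2 and NOISeq 1 (edgeR 4). Scaling by library totals moved the median of all genes by -0.15 from E10.5 to E16.5 and by -0.16 from E14.5 to E16.5 on the log2 scale, and no call of a member turned with it. The cause of these differences was not tested. The main fit did not pair samples by number, and whether the numbers pair them is not settled here. Deviations of same-numbered samples had r of -0.225 to 0.250 over 9 pairs, and those of other pairs -0.207 to 0.188. Same-numbered E14.5 and E16.5 samples had r of 0.250, 0.120 and 0.058, and all same-numbered pairs with E10.5 were negative. Of 9 samples, 4 were closest to their own number. With the replicate block, members called higher were 8, 6 and 0 and lower 0, 1 and 8 in the 3 comparisons, as without it, and over all genes 1985 were higher and 1182 lower from E10.5 to E14.5. No comparison reversed its direction. Limits are set by the few counts of the members at E10.5 and of the azurophil genes at E16.5, by pools that cannot show single embryos, and by E14.5 sample 1, which differed from the other E14.5 samples in corneal markers too.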
